A study of Mus musculus with 24 samples.

Results

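Granulocyte-macrophage progenitors (GMP) with a mutant Flt3 allele, an internal tandem duplication (labelled ITD), were compared with wild-type GMP (labelled WT). The comparison used 6 of the 24 RNA sequencing libraries of the series, 3 from ITD and 3 from WT, and took all of that cell population in these 2 genotypes. Of 23991 gene symbols in the deposited files, 10758 had at least 1 FPKM (a read level corrected for transcript length and library size) in at least 3 of the 6 libraries and were tested. Of the tested genes, 9705 reached 1 FPKM in all 6 libraries, 152 did so only in the 3 ITD libraries and 62 only in the 3 WT libraries. At the filter's edge, Cd300ld had 1.00008 FPKM in the library that decided the filter and was kept, and Casc4 had 0.999559 FPKM and was not.

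FLT3 is a receptor tyrosine kinase of early blood progenitors that answers to FLT3 ligand and supports the lymphoid and dendritic cell lineages. An internal tandem duplication in its juxtamembrane region keeps the kinase active without ligand, activates STAT5 in particular, and is a frequent lesion of acute myeloid leukaemia. GMP lie downstream of multipotent cells and give rise to neutrophils, monocytes, part of the dendritic cells and basophils. Their abundant lineage transcripts include those for the enzymes of the primary neutrophil granule.

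All cells were sorted from the bone marrow of mice on a C57BL/6 background, and the labels give no ages. ITD mice carried the Flt3 duplication with an unmodified Ern1 gene, and WT mice carried neither alteration. Other pairs of groups are used here for comparison only. One is GMP of IRE1_KO_ITD mice, which carried the Flt3 duplication, floxed Ern1 and Vav-Cre, against GMP of IRE1_KO mice, which carried floxed Ern1 and Vav-Cre alone. Ern1 encodes the endoplasmic reticulum (ER) stress sensor IRE1, and Vav-Cre recombines throughout the blood lineages, so the deletion is not limited to GMP. The other is LSK cells, the gate of stem and multipotent progenitors defined by absent lineage markers with Sca1 and cKit on the surface, of ITD mice against WT mice. Each group has 3 numbered libraries, and nothing in the labels says that they came from separate animals, so p-values measure the spread between these libraries, which may be technical.

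The libraries were near each other in depth and apart in a few respects. FPKM summed to between 579085 and 673177 in ITD and between 611460 and 659099 in WT, between 10691 and 10831 genes reached 1 FPKM in ITD and between 10436 and 10539 in WT, and ratios of low values put relative depth between 0.976 and 1.04 in ITD and between 0.931 and 1 in WT. Replicates correlated at 0.937 to 0.967 in ITD and 0.966 to 0.976 in WT. All 14 markers of GMP listed for the check reached 1 FPKM in each of the 6 libraries, and their summed level was 19496 to 23274 FPKM in ITD and 30618 to 32112 FPKM in WT, against 1498 to 3567 FPKM in WT LSK. None of 5 markers of T and NK cells reached 1 FPKM. The 8 markers of mature neutrophils summed to 2335, 92939 and 36784 FPKM in ITD and 61666, 45325 and 41812 FPKM in WT, above the GMP markers in WT. Transcripts of late neutrophil granules differed more between ITD libraries than between genotypes, and ITD replicate 1 stood apart by their low level. Read from Xist and from genes on the Y chromosome, the 3 ITD libraries were all female, against 1 female (replicate 1) and 2 male libraries in WT. With sex as a covariate, 277 genes were called in place of 1222, and 275 of these were called the same way in both. Among female libraries alone, an alternative chosen after seeing the data, all 1222 genes had the same sign. That fit left 1 WT library. Its ITD and WT libraries had also helped to choose the 1222 genes, so the signs are not an independent check. In bulk samples, fewer cells of a type and less RNA per cell cannot be told apart, and this holds for every lineage described below.

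Promoter sequences of 4 genes that rose in ITD are shown as examples. These are Cish, a feedback inhibitor and a known target of STAT5, Irf8, a regulator of the monocyte and dendritic lineage, and a pair of MHC class II chains. Each is 300 bases from RefSeq (GRCm38.p6), read 5′ to 3′ along the gene, from 250 bases before to 50 bases after the gene's start. In the first 2, capitals mark each match to TTCNNNGAA, the core that STAT factors bind, searched on both strands. They are Cish, chr9:107296409-107296708, plus strand, and Irf8, chr8:120736108-120736407, plus strand.
Cish: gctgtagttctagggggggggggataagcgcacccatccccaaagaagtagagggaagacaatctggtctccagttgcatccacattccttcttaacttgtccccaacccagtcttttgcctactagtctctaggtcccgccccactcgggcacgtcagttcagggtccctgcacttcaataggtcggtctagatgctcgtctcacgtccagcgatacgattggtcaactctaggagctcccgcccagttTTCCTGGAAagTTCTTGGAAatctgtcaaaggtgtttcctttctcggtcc
Irf8: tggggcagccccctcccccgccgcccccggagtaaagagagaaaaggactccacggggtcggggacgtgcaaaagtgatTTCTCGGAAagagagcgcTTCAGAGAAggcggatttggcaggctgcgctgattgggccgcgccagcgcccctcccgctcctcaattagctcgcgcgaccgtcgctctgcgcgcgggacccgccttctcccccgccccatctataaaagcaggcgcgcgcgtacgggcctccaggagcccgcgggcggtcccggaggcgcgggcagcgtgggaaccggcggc

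The matches start at bases 251 and 262 of the Cish window and at bases 80 and 98 of the Irf8 window. Of 32851 promoter windows in the RefSeq table, 8.30% hold this motif at least once. A second Irf8 window, chr8:120738389-120738688, is not shown and holds no match. The windows of Stat5b, which also rose, hold none either. Every window shown here holds the motif marked in it, so these windows do not represent all genes that rose. In both class II windows, capitals mark CCAAT or its reverse complement, the pentamer of the Y box that the factor NF-Y binds in class II promoters. They are H2-Aa, chr17:34287774-34288073, minus strand, and H2-Eb1, chr17:34305617-34305916, plus strand.
H2-Aa: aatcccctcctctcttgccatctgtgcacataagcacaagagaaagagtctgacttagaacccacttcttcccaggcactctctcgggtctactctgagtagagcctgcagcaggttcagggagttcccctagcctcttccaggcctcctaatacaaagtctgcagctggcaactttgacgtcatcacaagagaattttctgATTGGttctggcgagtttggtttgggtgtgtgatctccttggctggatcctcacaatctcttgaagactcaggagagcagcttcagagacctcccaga
H2-Eb1: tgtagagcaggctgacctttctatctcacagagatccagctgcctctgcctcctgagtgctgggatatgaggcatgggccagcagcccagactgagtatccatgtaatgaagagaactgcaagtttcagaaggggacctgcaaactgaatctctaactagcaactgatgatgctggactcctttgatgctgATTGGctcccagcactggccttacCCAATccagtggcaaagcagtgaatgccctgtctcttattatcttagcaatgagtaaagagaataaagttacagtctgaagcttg

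The CCAAT matches start at base 203 of the H2-Aa window and at bases 192 and 216 of the H2-Eb1 window, and 37.4% of all windows hold the pentamer. Of the 10 class II genes and regulators that rose, 7 have a promoter in the table, and 6 of their 10 windows hold CCAAT. These 7 include Nfya and Ctss, which do not encode class II chains. Among the class I genes that rose 10 of 12 windows hold it, and among the cholesterol genes that rose 8 of 9. Of the 4 STAT5 target genes that rose, 2 have a promoter there, and 1 of their 3 windows holds TTCNNNGAA. A match is a description of these letters and not evidence of binding. The table gave no promoter for Socs2, H2-Ab1 and Car1.

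Across the tested genes, 1222 differed between ITD and WT with a limma adjusted p under 0.05 (11.4% of 10758), 858 of them higher in ITD (7.98%) and 364 lower (3.38%). These are the genes said below to rise or fall, and fold changes are log2 differences on the log2(FPKM + 1) scale, ITD over WT, with the standard error of the limma fit after ±. This scale understates the change of genes with low FPKM. Counts of list members in ITD against WT GMP below stand beside these shares, 7.98% for genes that rose and 3.38% for genes that fell. By at least 1 log2 unit, 232 genes rose and 86 fell. The median log2 fold change of all tested genes was 0.07, and it was 0.00 with median-ratio size factors and -0.03 after quantile normalization. The share of calls that were higher in ITD was 70.2%, against 56.2% with size factors (951 higher, 740 lower) and 51.1% after quantile normalization (633 higher, 605 lower). The 6 libraries did not overlap between genotypes for 3694 genes (34.3%). Of the called genes, 104 that rose had passed the filter through ITD alone and 42 that fell through WT alone, so those had to differ. Leaving out WT replicate 3 gave 393 calls, and leaving out WT replicate 2 gave 437. With ITD replicate 3 left out the count was 641, and with ITD replicate 1 left out it was 800.

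**Figure D1:**
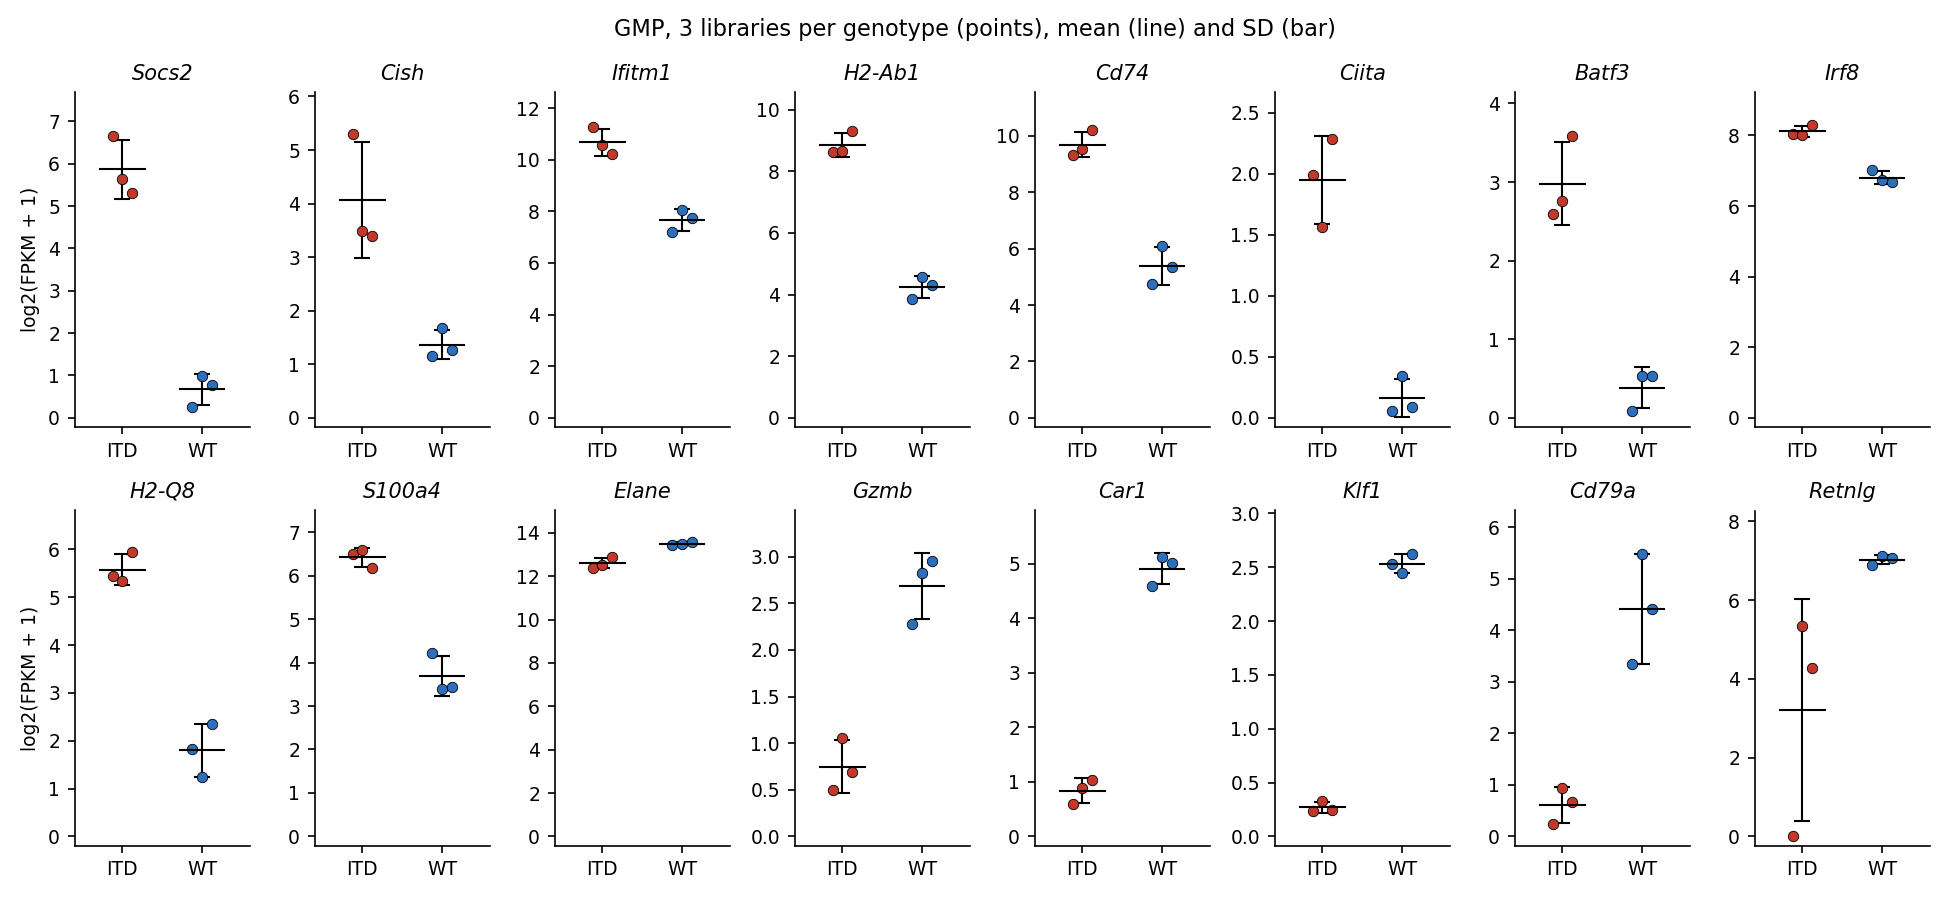
Levels of 16 genes in GMP, as log2(FPKM + 1) on the vertical axis, with ITD left and WT right in each panel, a point for each library, a line for the mean and a bar for the SD. The 10 genes from Socs2 to S100a4 are higher in all ITD libraries, the 6 from Elane to Retnlg are lower, and in Retnlg the ITD libraries spread from 0 to over 5.

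Flt3 itself, the altered gene, had 32.7, 14.8 and 13.5 FPKM in ITD and 4.54, 12.8 and 10.5 FPKM in WT. Its ITD libraries lay above the WT libraries, replicate 1 far above and the others by little, and the difference did not pass limma (1.04 ± 0.44, adjusted p = 0.145). A level per gene does not show the duplication, so it does not check the genotype. Kit, the gene of the surface receptor cKit, differed by -0.03 ± 0.14 (limma adjusted p = 0.888). LSK cells carry cKit too, so Kit alone does not describe the GMP gate. Of the other GMP markers, Cd34 had 187, 181 and 207 FPKM in ITD and 101, 152 and 148 FPKM in WT (0.53, limma adjusted p = 0.0719). Fcgr3 had 106, 160 and 142 FPKM in ITD and 264, 263 and 314 FPKM in WT. In Cd34 and Fcgr3 the genotypes did not overlap.

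Among the feedback inhibitors of cytokine signalling, Socs2 and Cish rose and Socs1 and Socs3 did not pass. Socs2, a suppressor of growth hormone and cytokine receptor signalling, had 99.9, 48.5 and 38.6 FPKM in ITD and 0.197, 0.976 and 0.705 FPKM in WT (5.19 ± 0.34, limma adjusted p = 2.19e-05). It was near the detection floor in each WT library and passed the filter through ITD alone, so it had to be higher there. Cish, whose promoter is shown above, had 38.6, 10.2 and 9.52 FPKM in ITD and 1.23, 2.18 and 1.42 FPKM in WT (2.70 ± 0.42, limma adjusted p = 0.00361). For both genes ITD replicate 1 was the highest library and the genotypes did not overlap. The related inhibitor Socs1 had 7.09, 3.38 and 3.05 FPKM in ITD and 1.41, 0.998 and 1.58 FPKM in WT, which did not pass (1.18 ± 0.34, limma adjusted p = 0.0512). Socs3, an inhibitor best known for STAT3 signalling, had 2.76, 4.79 and 5.52 FPKM in ITD and 1.98, 4.88 and 5.28 FPKM in WT, with overlap (0.12 ± 0.47, limma adjusted p = 0.884).

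Few other known STAT5 targets were called. Of 28 tested genes in this list, 22 had a fold change above 0 and 6 below, with a median of 0.38 against 0.07 over all genes. By the adjusted p, 4 rose (7.98% of all genes did) and 0 fell. The other risers were the cyclin Ccnd2 (0.83 ± 0.21, limma adjusted p = 0.0276) and Stat5b (0.48 ± 0.13, limma adjusted p = 0.0352). Neither held without ITD replicate 1 or 3 or WT replicate 2 or 3, with adjusted p of 0.0508 to 0.117 for Ccnd2 and 0.0799 to 0.133 for Stat5b, which also failed without WT replicate 1 (0.0618). The list's count was 2 without any of ITD replicates 1 and 3 and WT replicates 2 and 3, and 6 without ITD replicate 2. The kinase gene Pim1 had 33.7, 17.6 and 18.1 FPKM in ITD and 9.34, 21.4 and 51.1 FPKM in WT, with the genotypes overlapping (0.01 ± 0.54, limma adjusted p = 0.993). Of 20 tested genes of MAPK feedback and immediate early response, 0 rose and 1 fell, where 3.38% of all genes did. The gene that fell was the ERK phosphatase gene Dusp6 (-1.97 ± 0.53, limma adjusted p = 0.0391). That call was lost without any 1 library other than WT replicate 1, at adjusted p of 0.0509 to 0.143.

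Genes of MHC class II antigen presentation were far higher in ITD. Of 17 tested class II genes and regulators, 10 rose and 0 fell, with a median of 1.03. The 10 include Nfya and Ctss, which do not encode class II chains, and Ctss is also counted among the monocyte genes below. H2-Ab1, the class II beta chain of the A molecule, had 390, 405 and 635 FPKM in ITD and 13.4, 22.6 and 19 FPKM in WT (4.62 ± 0.45, limma adjusted p = 0.000299). H2-Aa, its alpha chain, had 211, 313 and 424 FPKM in ITD and 7.53, 21.9 and 13.7 FPKM in WT (4.42 ± 0.56, limma adjusted p = 0.00108). H2-Eb1, the beta chain of the E molecule, had 83.2, 108 and 158 FPKM in ITD and 2.61, 5.95 and 3.42 FPKM in WT (4.56 ± 0.51, limma adjusted p = 0.000656). In all 3, every ITD library lay far above every WT library, ITD replicate 3 was the highest and WT replicate 1 the lowest. On GRCm38.p6 they lie close together on chromosome 17, H2-Ab1 at 34263227 to 34269418, H2-Aa at 34282744 to 34287823 and H2-Eb1 at 34305867 to 34316674.

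The chaperone of the pathway and its transactivator were higher as well. Cd74, the invariant chain that escorts class II molecules out of the ER, had 643, 740 and 1178 FPKM in ITD and 26, 67.2 and 39.6 FPKM in WT (4.29 ± 0.59, limma adjusted p = 0.00169). Ciita, the transactivator that class II promoters depend on, had 2.98, 1.96 and 3.87 FPKM in ITD and 0.0414, 0.27 and 0.065 FPKM in WT (1.78 ± 0.21, limma adjusted p = 0.000787), and it passed the filter through ITD alone, so it had to differ. H2-DMa, a chain of the peptide editor H2-DM, was expressed in WT GMP already, with 109, 111 and 134 FPKM in ITD and 48.8, 50.7 and 46.4 FPKM in WT (1.26 ± 0.14, limma adjusted p = 0.000590). The subunits of its inhibitor, H2-Oa (0.74 ± 0.23, limma adjusted p = 0.0652) and H2-Ob (0.78 ± 0.26, limma adjusted p = 0.0767), and the promoter factor Rfx5 (-0.09 ± 0.12, limma adjusted p = 0.643) did not pass. Summed over the list, transcripts stood at 1717, 1972 and 2866 FPKM in ITD and 261, 344 and 293 FPKM in WT. The count of risers was 9 or 10 with any 1 library left out, and 7 with sex as a covariate.

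**Figure D2:**
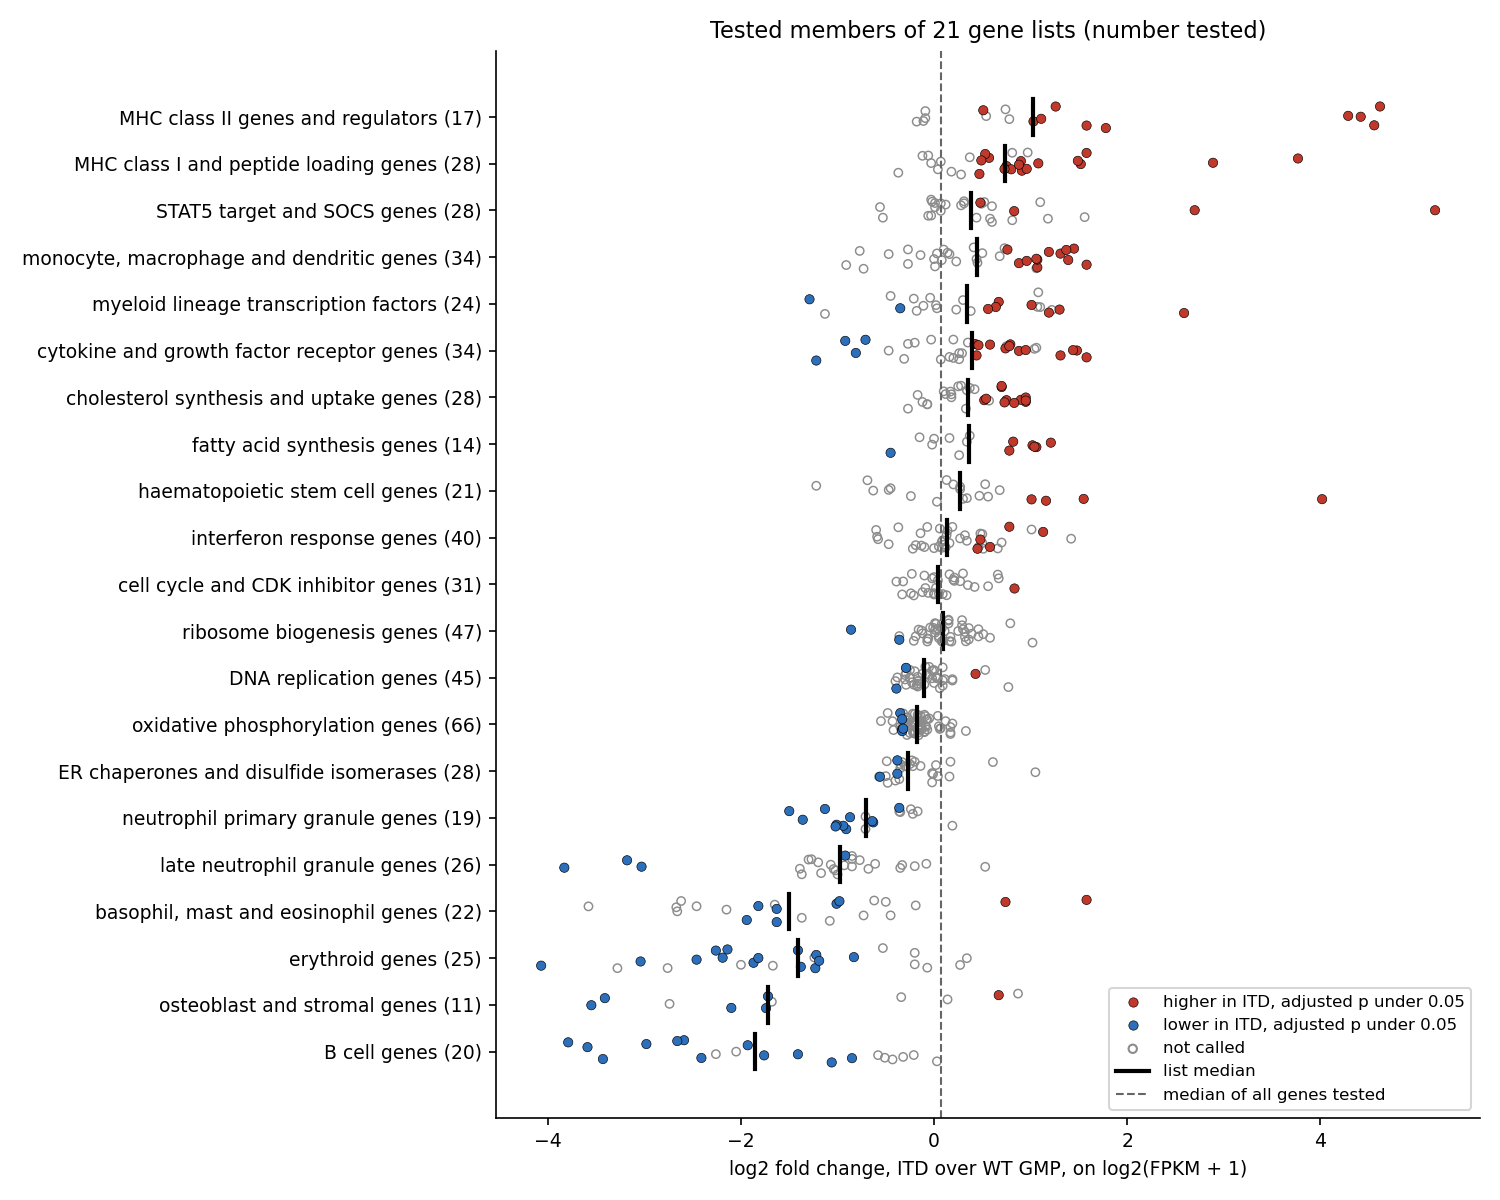
Log2 fold changes of ITD over WT for each tested member of 21 gene lists, with red for higher, blue for lower and open circles for genes not called. A bar marks the list's median and the dashed line the median of all tested genes, 0.07. MHC class II genes reach beyond 4, and erythroid and B cell genes reach near -4.

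Classical and non-classical MHC class I genes were also higher in ITD. Of 28 tested genes of class I and peptide loading, 17 rose and 0 fell, with a median of 0.74. H2-Q8, a non-classical class I gene of the Qa-2 group, had 42.4, 39.4 and 60.6 FPKM in ITD and 2.54, 1.35 and 4.07 FPKM in WT (3.77 ± 0.27, limma adjusted p = 3.58e-05), and H2-Q9 had 37.7, 44.2 and 48.3 FPKM in ITD and 7.11, 5.69 and 2.88 FPKM in WT (2.89 ± 0.52, limma adjusted p = 0.00714). The genotypes lay far apart in both, but the H2-Q genes are near-identical copies whose reads the counting could split, so single values are uncertain. H2-Q5 and H2-Q7 rose by 1.52 ± 0.13 and 1.58 ± 0.26 (limma adjusted p = 0.000231 and 0.00435), while H2-Q6 did not pass (0.97 ± 0.92, limma adjusted p = 0.504). The classical gene H2-D1 rose by 0.91 ± 0.11 (limma adjusted p = 0.000894). Tap1, a subunit of the transporter that carries peptides into the ER, had 49.5, 54.3 and 62.2 FPKM in ITD and 28, 29.4 and 29.9 FPKM in WT (0.90 ± 0.11, limma adjusted p = 0.000934). B2m, the shared light chain, had 1958, 2656 and 2687 FPKM in ITD and 1756, 1831 and 2001 FPKM in WT, with overlap between the genotypes (0.37 ± 0.15, limma adjusted p = 0.116). The list's count was 13 to 17 with any 1 library left out and 12 with sex as a covariate.

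Calls among interferon response genes depended on single libraries. Of 40 tested, 5 rose, where 7.98% of all genes did, and 0 fell, with a median of 0.13; the count was 15 without ITD replicate 1 and 2 without ITD replicate 3, WT replicate 2 or WT replicate 3. Irf1, a transcription factor induced by interferon, had 23.6, 32.6 and 32.3 FPKM in ITD and 25.6, 30.6 and 36.7 FPKM in WT (-0.07 ± 0.17, limma adjusted p = 0.812). Ifngr1, the ligand-binding chain of the interferon gamma receptor, fell to 136, 124 and 149 FPKM in ITD, against 240, 222 and 254 FPKM in WT (-0.81 ± 0.12, limma adjusted p = 0.00264). Among the IFITM genes, membrane proteins best known for restricting viruses, 2 of 6 rose and 1 fell. Ifitm1 had 2432, 1507 and 1200 FPKM in ITD and 148, 261 and 215 FPKM in WT (3.01 ± 0.28, limma adjusted p = 0.000260), Ifitm3 rose by 0.94 ± 0.17 (limma adjusted p = 0.00832, and 0.0596 with sex as a covariate), Ifitm7 fell by 0.62 ± 0.11 on the log2 scale (limma adjusted p = 0.00691), and Ifitm2 did not pass (0.23 ± 0.11, limma adjusted p = 0.198). Per length, Ifitm1 was above Ifitm2 and Ifitm3 in every ITD library and below them in every WT library.

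Among 4 genes of the conventional dendritic lineage, Irf8 rose, and Batf3, Clec9a and Mycl were tested because of their ITD values. Batf3, a transcription factor needed for cross-presenting dendritic cells, had 5.06, 5.76 and 11 FPKM in ITD and 0.0598, 0.449 and 0.45 FPKM in WT (2.59 ± 0.32, limma adjusted p = 0.00103). Clec9a, a receptor for dead cells on those dendritic cells, had 1.75, 1.99 and 2.56 FPKM in ITD and 0.211, 0.12 and 0.239 FPKM in WT (1.37 ± 0.15, limma adjusted p = 0.000573). Mycl, a MYC family member used by dendritic cells, had 3.41, 2.95 and 3.31 FPKM in ITD and 0.195, 0.517 and 0.309 FPKM in WT (1.66 ± 0.18, limma adjusted p = 0.000573). These 3 were under 1 FPKM in every WT library, so they passed the filter through ITD alone and had to be higher there. Irf8, already abundant in WT GMP, had 265, 255 and 312 FPKM in ITD and 128, 106 and 101 FPKM in WT (1.30 ± 0.13, limma adjusted p = 0.000299). Further markers stayed low or uneven: Xcr1 had 1.72, 1.32 and 0.795 FPKM in ITD and 0.28, 0.262 and 0.124 FPKM in WT, Itgax had 0.4, 0.559 and 1.3 FPKM in ITD and 0.104, 0.231 and 0.146 FPKM in WT, and Cd209a had 0.481, 12.4 and 10.9 FPKM in ITD and 0.357, 0.588 and 0.154 FPKM in WT, none of them at 1 FPKM in 3 libraries. Siglech, which marks plasmacytoid cells, was under 0.3 FPKM in each library. The 8 dendritic markers of the marker check summed to 125, 159 and 167 FPKM in ITD and 104, 119 and 114 FPKM in WT, with 5 or 6 at 1 FPKM or more in ITD and 3 in WT. Most of each sum was Bst2, with 79.8, 122 and 131 FPKM in ITD and 93.3, 101 and 98.2 FPKM in WT. The sum also holds Flt3, the altered gene, with 32.7, 14.8 and 13.5 FPKM in ITD and 4.54, 12.8 and 10.5 FPKM in WT. The part of the dendritic markers in the class II result was not tested.

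Of 34 tested genes of monocytes, macrophages and dendritic cells, 12 rose and 0 fell, with a median of 0.45. Ctss, the protease that trims the invariant chain, had 88.8, 109 and 109 FPKM in ITD and 35.6, 32.7 and 32.1 FPKM in WT (1.58 ± 0.20, limma adjusted p = 0.00122). Ifi30, a lysosomal thiol reductase used in antigen processing, rose by 1.31 ± 0.17 and Cd68, a lysosomal glycoprotein of macrophages, by 1.07 ± 0.17 (limma adjusted p = 0.00108 and 0.00435). Of surface genes that mark monocytes, Fcgr1 rose (0.88, limma adjusted p = 0.00597). Csf1r differed by 0.44 ± 0.17, Ly6c2 by -0.14 ± 0.29, Ccr2 by 1.06 ± 0.35 and Cx3cr1 by 0.50 ± 0.34, and these did not pass (limma adjusted p = 0.119, 0.782, 0.0756 and 0.334). In Csf1r and Ccr2 every ITD library lay above every WT library. The 5 monocyte markers of the marker check summed to 2392, 4800 and 4746 FPKM in ITD and 3989, 3842 and 4107 FPKM in WT, with ITD replicate 1 below and the others above the WT libraries. Most of each sum was Ly6c2, with 2126, 4342 and 4318 FPKM in ITD and 3768, 3609 and 3889 FPKM in WT. The count of risers was 8 without WT replicate 2 or 3, 13 without ITD replicate 1 and 5 with sex as a covariate.

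Myeloid lineage transcription factors rose more often than they fell, on counts that rested on single libraries. Of 24 tested factors 7 rose (7.98% of all genes did) and 2 fell (3.38% did), with a median of 0.34. The count of risers was 2 without WT replicate 2 or 3, 3 without ITD replicate 3 and 4 without ITD replicate 1. Besides Irf8 and Batf3, described above, Runx1 (1.01, limma adjusted p = 0.0122) and Etv6 (0.64, limma adjusted p = 0.0230) rose. The calls of Runx1 and Etv6 were lost without WT replicate 2 or 3. Cebpa, required for GMP to form, had 30.7, 10.3 and 9.83 FPKM in ITD and 8.74, 4.65 and 6.42 FPKM in WT (1.08 ± 0.43, limma adjusted p = 0.126). Cebpe, which drives late granule genes, had 11.5, 58.8 and 49 FPKM in ITD and 89.9, 65.2 and 64.7 FPKM in WT (-1.13 ± 0.52, limma adjusted p = 0.169). For neither gene did the genotypes overlap, and in both ITD replicate 1 was the extreme library. Gfi1, a repressor that favours neutrophils, differed by -0.04 ± 0.40, and Spi1, which encodes PU.1, by 0.38 ± 0.14 (limma adjusted p = 0.957 and 0.0975). Gfi1b, the relative of Gfi1 used by red cells and platelets, fell to 0.935, 1.1 and 1.82 FPKM in ITD, against 4.64, 4.6 and 4.26 FPKM in WT (-1.29 ± 0.21, limma adjusted p = 0.00435).

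Genes for enzymes of the primary granule, the hallmark of GMP, were lower in ITD. Of 19 tested, 0 rose and 11 fell, with a median of -0.71. Prtn3, which encodes proteinase 3, had 2533, 2322 and 2655 FPKM in ITD and 4752, 4816 and 4778 FPKM in WT (-0.94 ± 0.11, limma adjusted p = 0.000724). Elane, which encodes neutrophil elastase, had 5418, 5912 and 7471 FPKM in ITD and 11189, 11660 and 12215 FPKM in WT (-0.91 ± 0.15, limma adjusted p = 0.00435). For both, no ITD library came near the lowest WT library, but after quantile normalization the adjusted p was 0.163 for Prtn3 and 0.448 for Elane, and Elane had 0.0547 without the filter on low values. Nkg7, a granule membrane protein, had 449, 566 and 653 FPKM in ITD and 1109, 1200 and 1301 FPKM in WT (-1.13 ± 0.17, limma adjusted p = 0.00334), and Cst7, which encodes the protease inhibitor cystatin F, fell by 0.64 ± 0.09 on the log2 scale (limma adjusted p = 0.00242). Mpo, which encodes myeloperoxidase, did not pass, with 9217, 7265 and 9692 FPKM in ITD and 10157, 9240 and 9758 FPKM in WT (-0.17 ± 0.12, limma adjusted p = 0.381). The list summed to 22939, 22875 and 26553 FPKM in ITD and 36722, 36501 and 38321 FPKM in WT. The count of genes that fell was 5 without WT replicate 2 or 3, 6 without ITD replicate 1 or 3, and 5 with sex as a covariate.

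Late neutrophil granule transcripts set the ITD libraries apart from each other. The list summed to 2817, 97779 and 39808 FPKM in ITD and 65906, 48598 and 44854 FPKM in WT, so ITD replicate 1 was the lowest and ITD replicate 2 the highest of the 6. S100a8, a chain of calprotectin, had 1146, 51552 and 18338 FPKM in ITD and 33670, 25033 and 23072 FPKM in WT (-1.39 ± 1.26, limma adjusted p = 0.480), and it took 7.66% of all FPKM in ITD replicate 2. Ltf, which encodes lactoferrin, had 38.5, 754 and 539 FPKM in ITD and 654, 481 and 408 FPKM in WT (limma adjusted p = 0.556), with overlap. Of 26 tested genes 4 fell and 0 rose, and 0 fell without ITD replicate 1, WT replicate 2 or WT replicate 3 and 1 without ITD replicate 3 or WT replicate 1, so the list gives no difference between the genotypes that holds over the libraries. Whether these transcripts affected other genes of ITD replicates 1 and 2 was not tested. Without ITD replicate 2, 1637 genes were called.

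**Figure D3:**
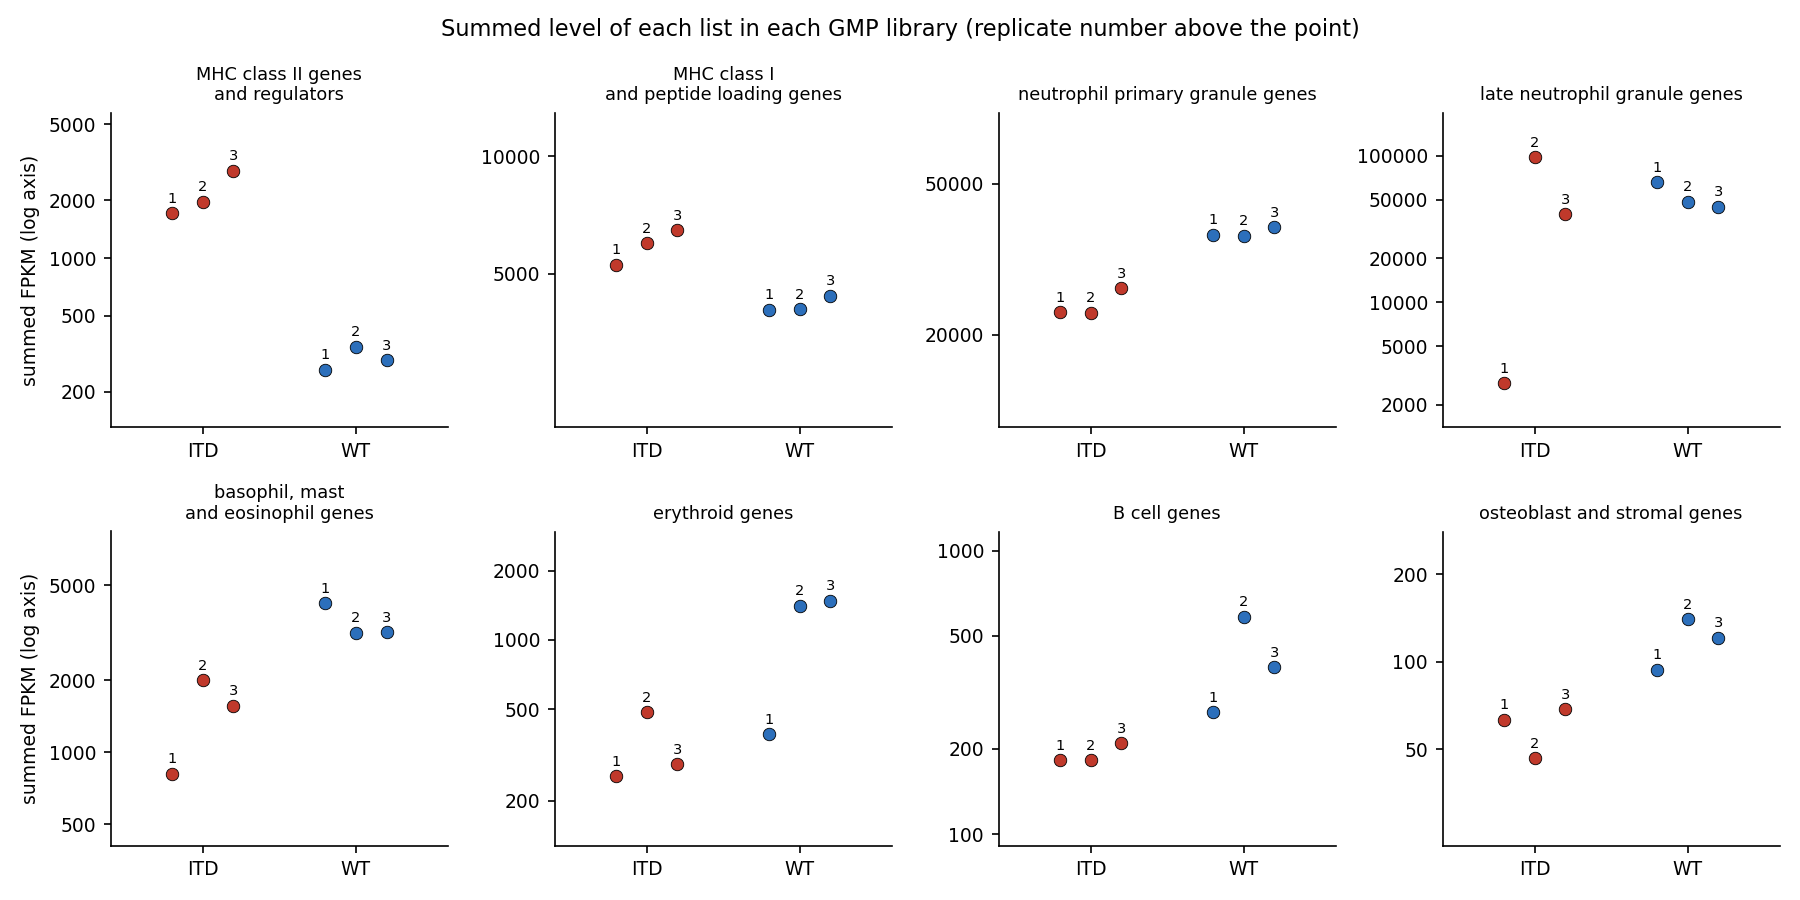
Summed FPKM of 8 gene lists in each of the 6 GMP libraries, on log axes, with ITD left and WT right and the replicate number above each point. MHC class II and class I sums are higher and primary granule sums lower in all 3 ITD libraries, while late neutrophil sums run from 2817 to 97779 FPKM within ITD.

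Of 22 tested basophil, mast cell and eosinophil genes, 6 fell and 2 rose, and the median was -1.50. Gzmb, a granzyme gene listed here with basophil and mast cell genes, had 0.411, 1.08 and 0.615 FPKM in ITD and 3.86, 6.1 and 6.73 FPKM in WT (-1.94 ± 0.25, limma adjusted p = 0.00131). Ms4a2, a subunit of the high-affinity receptor for IgE, had 1.11, 2.92 and 1.95 FPKM in ITD and 12.8, 8.59 and 7.17 FPKM in WT (-1.82 ± 0.35, limma adjusted p = 0.0103, and 0.0652 with sex as a covariate). Prg2, the eosinophil major basic protein gene, had 2.95, 336 and 251 FPKM in ITD and 1430, 661 and 604 FPKM in WT, with no overlap but over a range in ITD that left it short of the threshold (-3.58 ± 1.38, limma adjusted p = 0.112). The 2 that rose, Il6st and Csf2rb2, encode receptor chains used by many lineages. The count of genes that fell was 2 without WT replicate 2 or 3, 3 without ITD replicate 1, 4 without ITD replicate 3 or WT replicate 1, and 1 with sex as a covariate.

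Transcripts of early red cells were lower in ITD. Of 25 tested genes, 14 fell and 0 rose, with a median of -1.41; 10 of the 25 had passed the filter through WT alone and had to differ, so the count and the median describe only the genes that passed. Car1, the carbonic anhydrase of early red cells, had 0.502, 0.85 and 1.06 FPKM in ITD and 23, 33.9 and 31.2 FPKM in WT (-4.07 ± 0.24, limma adjusted p = 2.01e-05). Car2 had 5.79, 5.06 and 3.9 FPKM in ITD and 41.1, 51.5 and 50 FPKM in WT (-3.04 ± 0.20, limma adjusted p = 2.19e-05). Klf1, the master factor of red cell genes, had 0.176, 0.258 and 0.187 FPKM in ITD and 4.76, 4.45 and 5.17 FPKM in WT (-2.26 ± 0.11, limma adjusted p = 6.78e-06). For Car1 and Car2 all ITD libraries lay far below the lowest WT library, while Klf1, like Epor, had passed through WT alone and had to be lower in ITD. Gata1, which drives red cell, platelet, mast cell and eosinophil genes, had 0.121, 1.07 and 0.86 FPKM in ITD and 5.31, 5.55 and 4.05 FPKM in WT (-1.87 ± 0.22, limma adjusted p = 0.000847), and Epor, the erythropoietin receptor, was under 0.2 FPKM in ITD against 1.63, 1.51 and 1.35 FPKM in WT (-1.22 ± 0.14, limma adjusted p = 0.000724). The count of genes that fell was 13 to 17 with any 1 library left out and 13 with sex as a covariate. Globin transcripts did not pass and differed within WT: Hbb-b1 had 14.4, 111 and 31.9 FPKM in ITD and 26.1, 351 and 380 FPKM in WT (limma adjusted p = 0.189). Of the platelet lineage, 2 of 7 tested genes fell, Pf4 and Itga2b, and neither call held without ITD replicate 1, WT replicate 2 or WT replicate 3 (adjusted p of 0.0681 to 0.0937 for Pf4 and 0.101 to 0.137 for Itga2b, which also had 0.0613 without ITD replicate 2).

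B cell transcripts were also lower. Of 20 tested genes 12 fell and 0 rose, with a median of -1.85, and 8 of the 20 had passed through WT alone and had to differ. Cd79a, a signalling chain of the B cell receptor, had 0.183, 0.917 and 0.581 FPKM in ITD and 9.14, 43.5 and 20.2 FPKM in WT (-3.79 ± 0.58, limma adjusted p = 0.00314). Vpreb3, a protein of early B cells, had 0.88, 1.56 and 2.8 FPKM in ITD and 12.9, 50.7 and 30.9 FPKM in WT (-3.43 ± 0.53, limma adjusted p = 0.00322), and Ly6d, which marks lymphoid progenitors bound for B cells, had 0, 2.3 and 0.699 FPKM in ITD and 9.41, 39.5 and 22.4 FPKM in WT (-3.59 ± 0.56, limma adjusted p = 0.00357). In all 3, WT replicate 2 was the highest and WT replicate 1 the lowest WT library, and the genotypes did not overlap, which the filter required for Cd79a. Cd79b, the partner chain, had 52, 41.7 and 45.8 FPKM in ITD and 47.5, 67.5 and 60.6 FPKM in WT, with overlap (-0.32 ± 0.17, limma adjusted p = 0.224). The defining factors were low throughout: Pax5 was at most 0.0311 FPKM in ITD and 0.326 FPKM in WT, and Ebf1 at most 0.0996 FPKM in ITD and 1.59 FPKM in WT. The 7 B cell markers of the marker check summed to 54.6, 44.8 and 48.7 FPKM in ITD and 65, 166 and 106 FPKM in WT, and their part in the result was not tested. The count of genes that fell was 4 with WT replicate 2 left out, 5 with WT replicate 3, 7 with ITD replicate 1 and 8 with ITD replicate 3 left out, and 4 with sex as a covariate.

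Receptors for cytokines changed in both directions. Of 34 tested, 13 rose and 4 fell, with a median of 0.39; 5 rose without WT replicate 2 or 3, 6 without ITD replicate 3 and 7 without ITD replicate 1. Il6st, the shared signalling chain of the interleukin 6 family, had 20.5, 14.2 and 17.2 FPKM in ITD and 6.05, 4.64 and 4.62 FPKM in WT (1.58 ± 0.20, limma adjusted p = 0.00114). Il10ra, the interleukin 10 receptor chain, had 13.5, 11.7 and 14.1 FPKM in ITD and 3.91, 4.46 and 3.76 FPKM in WT (1.48 ± 0.18, limma adjusted p = 0.000787), and Cxcr3, a chemokine receptor, had 3.55, 1.78 and 3.08 FPKM in ITD and 0.456, 0.466 and 0.21 FPKM in WT (1.44 ± 0.20, limma adjusted p = 0.00198). Cxcr3 passed the filter through ITD alone and had to differ, and in Il6st and Il10ra the genotypes did not overlap. Csf3r, the receptor for the neutrophil growth factor, fell to 16.6, 27.1 and 34.2 FPKM in ITD, against 43.9, 48.2 and 52.6 FPKM in WT (-0.92 ± 0.23, limma adjusted p = 0.0279), a call lost without ITD replicate 1 (0.0535), WT replicate 2 (0.0864) or WT replicate 3 (0.109). Csf2rb and Csf2rb2, near-identical genes for the chain shared by the receptors of GM-CSF and interleukin 3, rose by 0.58 ± 0.12 and 0.74 ± 0.15 (limma adjusted p = 0.0138 and 0.0139), and neither call held without WT replicate 2 or 3 (0.0627 and 0.0676 for Csf2rb, 0.0525 and 0.0641 for Csf2rb2, which also had 0.0517 without ITD replicate 3).

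Survival genes of the BCL2 family rose in part. Bcl2, which blocks apoptosis at the mitochondrion, had 41.7, 23.6 and 25 FPKM in ITD and 12.1, 11.7 and 10.2 FPKM in WT (1.29 ± 0.23, limma adjusted p = 0.00771, and 0.0593 with sex as a covariate). Bcl2a1a and Bcl2a1d, copies of a related survival gene, rose by 1.55 ± 0.25 and 1.65 ± 0.25 (limma adjusted p = 0.00422 and 0.00277), with reads that could be split between the copies. Of 14 tested members, 4 rose, where 7.98% of all genes did, and 0 fell. The remaining riser was another copy, Bcl2a1b (1.29, limma adjusted p = 0.0470), and its call was lost with any 1 library left out. The count of risers was 3 with any 1 library left out and 2 with sex as a covariate. Mcl1 and Bcl2l1 differed by 0.52 ± 0.27 and 0.07 ± 0.13 (limma adjusted p = 0.213 and 0.766). The proapoptotic Bcl2l11 differed by 0.15 ± 0.18 (limma adjusted p = 0.588). Cell cycle genes gave no such count: 1 of 31 rose and 0 fell, with a median of 0.04. Of 45 DNA replication genes 1 rose and 2 fell, where 7.98% of all genes rose and 3.38% fell. Myc had 208, 85.9 and 118 FPKM in ITD and 92.9, 84.5 and 76.7 FPKM in WT (0.60 ± 0.26, limma adjusted p = 0.156).

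Lipid synthesis genes were modestly higher. Of 28 tested genes of cholesterol synthesis and uptake 11 rose and 0 fell, with a median of 0.35, and of 14 fatty acid synthesis genes 6 rose and 1 fell. Scd2, a desaturase that makes monounsaturated fatty acids, had 68.6, 40.7 and 51.2 FPKM in ITD and 26.2, 24.1 and 23.4 FPKM in WT (1.06 ± 0.19, limma adjusted p = 0.00691). Srebf2, the factor that induces cholesterol synthesis, had 28.4, 18 and 21.8 FPKM in ITD and 13.2, 11.1 and 9.29 FPKM in WT (0.95 ± 0.18, limma adjusted p = 0.0102), and it had 0.0521 without WT replicate 3 and 0.0725 with sex as a covariate. The cholesterol count was 1 without WT replicate 2 or 3, 4 without ITD replicate 1 or 3 and 0 with sex as a covariate, and the fatty acid count of risers was 2 without WT replicate 2 or 3, 3 without ITD replicate 1, ITD replicate 3 or WT replicate 1, and 1 with sex as a covariate.

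Genes of the secretory pathway and of mitochondrial respiration were called as lower at a share above the 3.38% of all genes, on counts that rested on single libraries. Of 28 ER chaperones and disulfide isomerases 0 rose and 3 fell, with a median of -0.27, and 1 rose and 13 fell with size factors. Of 54 genes of the ER translocon, glycosylation and ER-associated degradation 0 rose and 4 fell, with a median of -0.22, and 15 fell with size factors. Of 66 oxidative phosphorylation genes 0 rose and 5 fell, with a median of -0.18, and 15 fell with size factors. Leaving out WT replicate 3 left 0 calls among the chaperones and the respiration genes and 2 in the translocon list, WT replicate 2 or ITD replicate 3 left 1, 1 and 2, and ITD replicate 2 gave 10 respiration genes and 7 translocon genes that fell. Ern1 had 13.9, 11.8 and 16 FPKM in ITD and 10.4, 9.2 and 7.58 FPKM in WT (0.57 ± 0.16, limma adjusted p = 0.0423), a call lost without ITD replicate 1 or 3 or WT replicate 2 or 3 (adjusted p of 0.0890 to 0.167). Xbp1, whose mRNA IRE1 splices, had 127, 87.2 and 94.8 FPKM in ITD and 110, 93.1 and 100 FPKM in WT (0.01 ± 0.18, limma adjusted p = 0.972), and Hspa5, the chaperone BiP, differed by -0.49 ± 0.18 (limma adjusted p = 0.0953). A level per gene does not show splicing.

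Several of the largest single changes fell outside these families. Nov, a matricellular protein gene also known as Ccn3 and used by stem cells, had 24.8, 13 and 10.8 FPKM in ITD and was listed at 0 in all 3 WT libraries. Cp, which encodes the copper oxidase ceruloplasmin, had 12.2, 5.44 and 7.05 FPKM in ITD and 0.135, 0.202 and 0.1 FPKM in WT (2.94 ± 0.30, limma adjusted p = 0.000398). Both were detected at 1 FPKM in ITD libraries alone. S100a4, a calcium-binding protein of motile cells, had 89.4, 95 and 71.5 FPKM in ITD and 17.8, 9.58 and 9.92 FPKM in WT (2.73 ± 0.28, limma adjusted p = 0.000398). Ckb, brain-type creatine kinase, had 20.1, 14.6 and 22.5 FPKM in ITD and 1.29, 2.32 and 1.97 FPKM in WT (2.81 ± 0.40, limma adjusted p = 0.00206). Fcgrt, the heavy chain of the neonatal Fc receptor, was even within each genotype, with 19.7, 16.9 and 18.2 FPKM in ITD and 4.81, 4.01 and 3.82 FPKM in WT (1.89 ± 0.13, limma adjusted p = 2.69e-05). Among bone matrix genes, 5 of 11 tested osteoblast and stromal genes fell, led by the osteocalcin copies Bglap (-3.55 ± 0.83) and Bglap2 (-3.41 ± 0.76; limma adjusted p = 0.0219 and 0.0189), but the count was 0 without WT replicate 2 and 1 without ITD replicate 1 or WT replicate 3. Leaving out any of these 3 libraries gave an adjusted p of 0.0638 to 0.0796 for Bglap and 0.0577 to 0.0728 for Bglap2.

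The same contrast was available in GMP that lacked Ern1, in 6 further libraries that shared the estimate of spread but no library with the first comparison. There, 1352 genes differed between IRE1_KO_ITD and IRE1_KO (12.6%), 873 higher (8.11%) and 479 lower (4.45%). The count was 670 when IRE1_KO_ITD replicate 2 was left out, 789 for replicate 1 of that group, and 717 and 673 for IRE1_KO replicates 1 and 3. Of the genes called in ITD against WT, 539 were called in the same direction (44.1% of 1222 and 39.9% of 1352) and 2 in the opposite one. The same sign was found for 93.8% of the 1222 genes, against 65.8% of all tested genes. Socs2 had 61.2, 83.9 and 79 FPKM in IRE1_KO_ITD and 0.278, 1.24 and 0.786 FPKM in IRE1_KO (5.44 ± 0.34, limma adjusted p = 2.20e-05). H2-Q8 had 49.3, 41.8 and 49.4 FPKM in IRE1_KO_ITD and 3.21, 2.44 and 4.31 FPKM in IRE1_KO (3.49 ± 0.27, limma adjusted p = 5.03e-05), and Klf1 had 0.274, 0.0666 and 0.198 FPKM in IRE1_KO_ITD and 4.51, 5.4 and 4.54 FPKM in IRE1_KO (-2.30 ± 0.11, limma adjusted p = 2.82e-06). In all 3 the genotypes were far apart. Counts in this contrast were 15 of 28 class I genes higher, where 8.11% of all genes were. Lower were 17 of 25 erythroid genes and 15 of 20 B cell genes, where 4.45% of all genes were.

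For MHC class II genes the sexes of the libraries stand beside the values. IRE1_KO_ITD had 1 female library (replicate 2) and 2 male, and IRE1_KO had 2 female (replicates 2 and 3) and 1 male, where the 3 ITD libraries were female. Of the 17 tested members 2 rose in IRE1_KO_ITD against IRE1_KO, where 8.11% of all genes did, with a median of 0.14. H2-Ab1 had 40.2, 90.6 and 26.9 FPKM in IRE1_KO_ITD and 15.7, 25.5 and 45.5 FPKM in IRE1_KO (0.79 ± 0.45, limma adjusted p = 0.283). Cd74 had 49, 146 and 27.9 FPKM in IRE1_KO_ITD and 27.1, 68.6 and 80.3 FPKM in IRE1_KO (0.14 ± 0.59, limma adjusted p = 0.914). Ciita had 0.279, 0.201 and 0.131 FPKM in IRE1_KO_ITD and 0.0776, 0.761 and 0.195 FPKM in IRE1_KO (-0.13 ± 0.21, limma adjusted p = 0.749). The genotypes overlapped in these genes. Batf3 had 0.119, 1.62 and 0.518 FPKM in IRE1_KO_ITD and 0.0619, 0.354 and 0.434 FPKM in IRE1_KO (0.37 ± 0.32, limma adjusted p = 0.503), and Irf8 had 243, 265 and 221 FPKM in IRE1_KO_ITD and 141, 163 and 128 FPKM in IRE1_KO (0.75 ± 0.13, limma adjusted p = 0.00408). The female library of IRE1_KO_ITD was the highest of its group for H2-Ab1, Cd74, Batf3 and Irf8 but not for Ciita. In IRE1_KO the male library was the lowest for H2-Ab1, Cd74, Ciita and Batf3, while in WT the female library was. Irf8 was highest in the female WT library. With sex as a covariate, the ITD against WT calls held for H2-Ab1, Cd74, Ciita and Batf3 (limma adjusted p = 0.00294, 0.0140, 0.00876 and 0.0108). The effect's difference by Ern1 genotype then gave 0 calls. The part of sex was not tested further.

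The difference between these effects was tested directly, and 0 of 10758 genes were called by limma (0.00%), with 1406 at an unadjusted p under 0.05. For H2-Ab1 the effect of the Flt3 allele with Ern1 deleted minus that with Ern1 intact was -3.83 ± 0.63 (limma adjusted p = 0.120), for Cd74 -4.15 ± 0.83 (0.154), for Ciita -1.91 ± 0.30 (0.118), for Batf3 -2.22 ± 0.46 (0.158) and for Irf8 -0.55 ± 0.18 (0.294). These differences did not pass, and the design does not show that the effects differ by Ern1 genotype or that they are alike. Without ITD replicate 1, 97 genes were called, and without IRE1_KO_ITD replicate 2, which had the highest H2-Ab1 level of its group, 13 were.

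**Figure D4:**
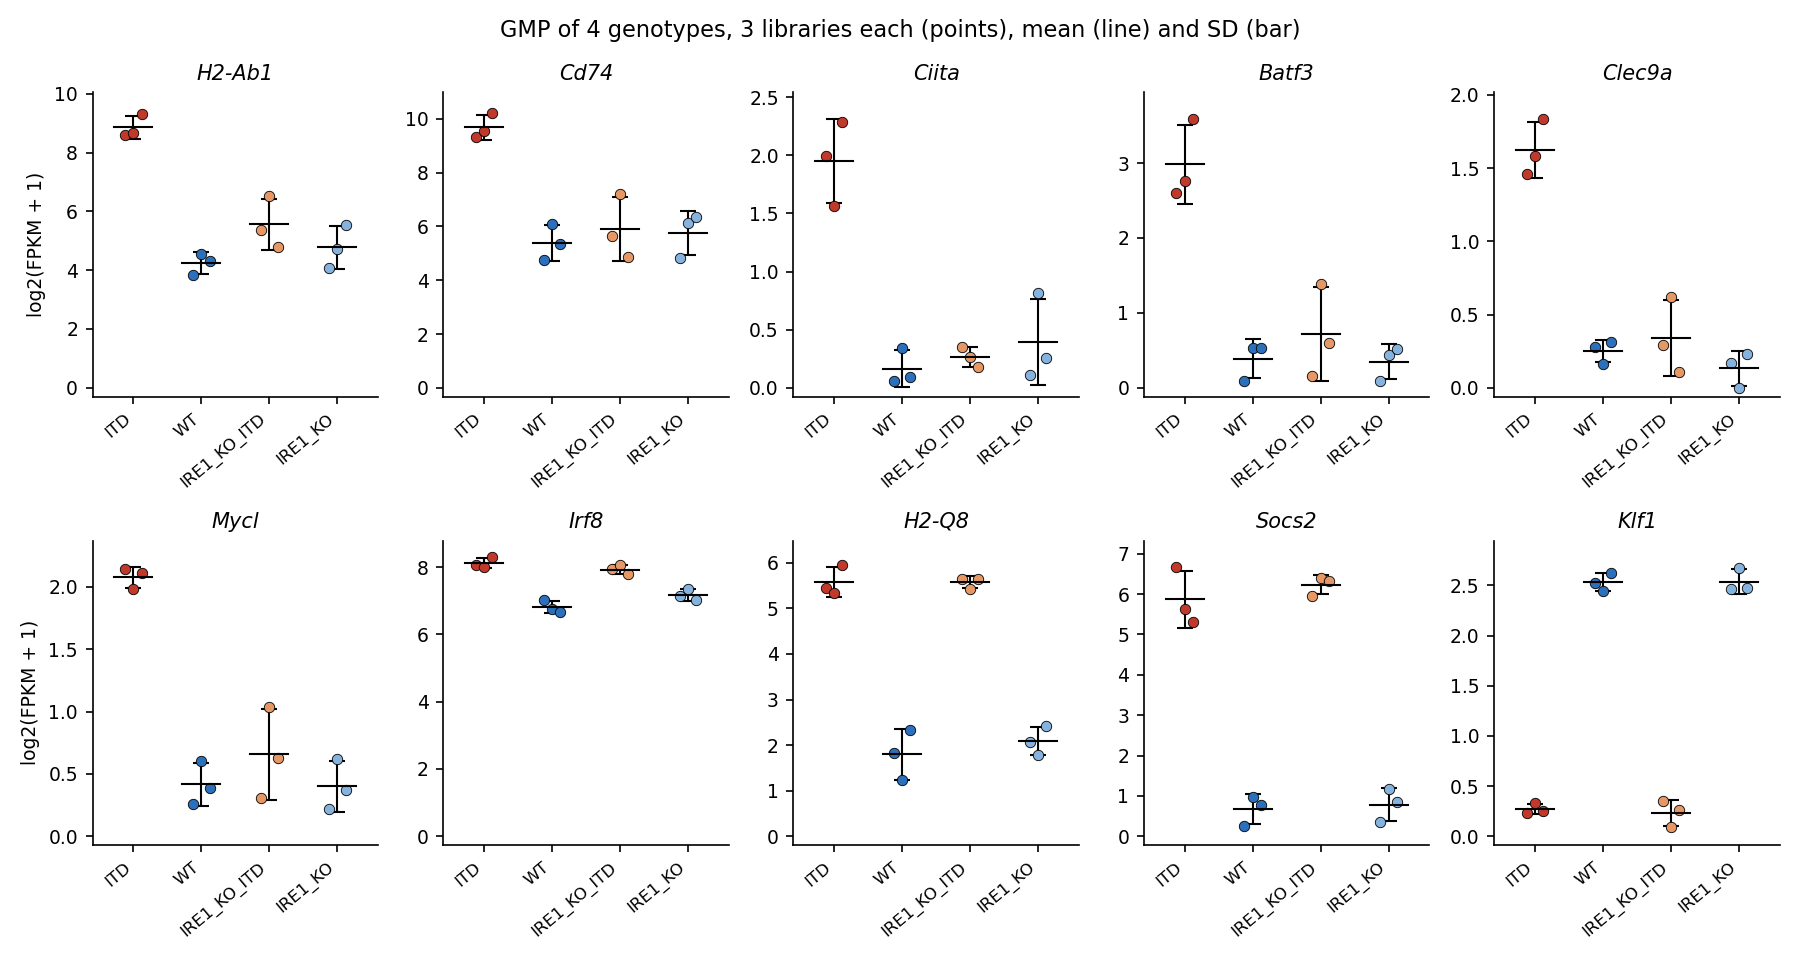
Levels of 10 genes in GMP of 4 genotypes, as log2(FPKM + 1), with a point for each library, a line for the mean and a bar for the SD. The class II genes H2-Ab1, Cd74 and Ciita and the genes Batf3, Clec9a and Mycl are highest in the 3 ITD libraries, while Irf8, H2-Q8 and Socs2 are high and Klf1 is low in both ITD and IRE1_KO_ITD.

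Against LSK cells of the same genotypes, the effect in GMP differed for 1481 of 10758 genes (13.8%), more positive in GMP for 626 (5.82%) and more negative for 855 (7.95%). In LSK, 2409 of the genes tested here were called (22.4%), 16.9% higher and 5.50% lower in ITD. Of these, 355 were called in the same direction in GMP (29.1% of the GMP calls and 14.7% of the LSK calls), and 64 in the opposite one. The count of differences was 644 without WT LSK replicate 2, 757 without WT GMP replicate 2 and 823 without WT GMP replicate 3. Class II genes rose in both populations, with H2-Ab1 at 148, 768 and 1083 FPKM in ITD LSK and 67, 38.1 and 35.8 FPKM in WT LSK, and for H2-Ab1 the difference between the effects did not pass (1.18 ± 0.79, limma adjusted p = 0.322). Socs2 had 294, 247 and 224 FPKM in ITD LSK and 13, 18.4 and 15.5 FPKM in WT LSK, a smaller log2 change than in GMP (difference 1.24 ± 0.39, limma adjusted p = 0.0402), where the WT level was near 0.

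Flt3, the altered gene, had 55.2, 58.7 and 53.2 FPKM in ITD LSK and 144, 145 and 161 FPKM in WT LSK (-1.41 ± 0.34, limma adjusted p = 0.00626), and the effect was 2.45 ± 0.48 more positive in GMP (limma adjusted p = 0.00433). Primary granule genes fell in GMP but not in LSK, where 5 of 19 rose (16.9% of all genes did) and 0 fell (5.50% of all genes did), and 9 of 19 had a more negative effect in GMP (7.95% of all genes did). Prtn3 differed by -1.51 ± 0.48 and Nkg7 by -1.51 ± 0.25 (limma adjusted p = 0.0419 and 0.00204). Ribosome biogenesis genes and ER chaperones and disulfide isomerases rose in ITD LSK and not in GMP. Of 47 ribosome biogenesis genes 0 rose in GMP and 39 in LSK (16.9% of all genes did), with a more negative effect in GMP for 20 (7.95% of all genes). Of 28 ER chaperones and disulfide isomerases 0 rose in GMP and 15 in LSK, with a more negative effect in GMP for 16. Of 21 stem cell genes, 4 rose in GMP (7.98% of all genes did) and 7 fell in LSK (5.50% did). The GMP count was 2 with any 1 library other than ITD replicate 2 left out, and the effect was more positive in GMP for 8 (5.82% of all genes).

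**Figure D5:**
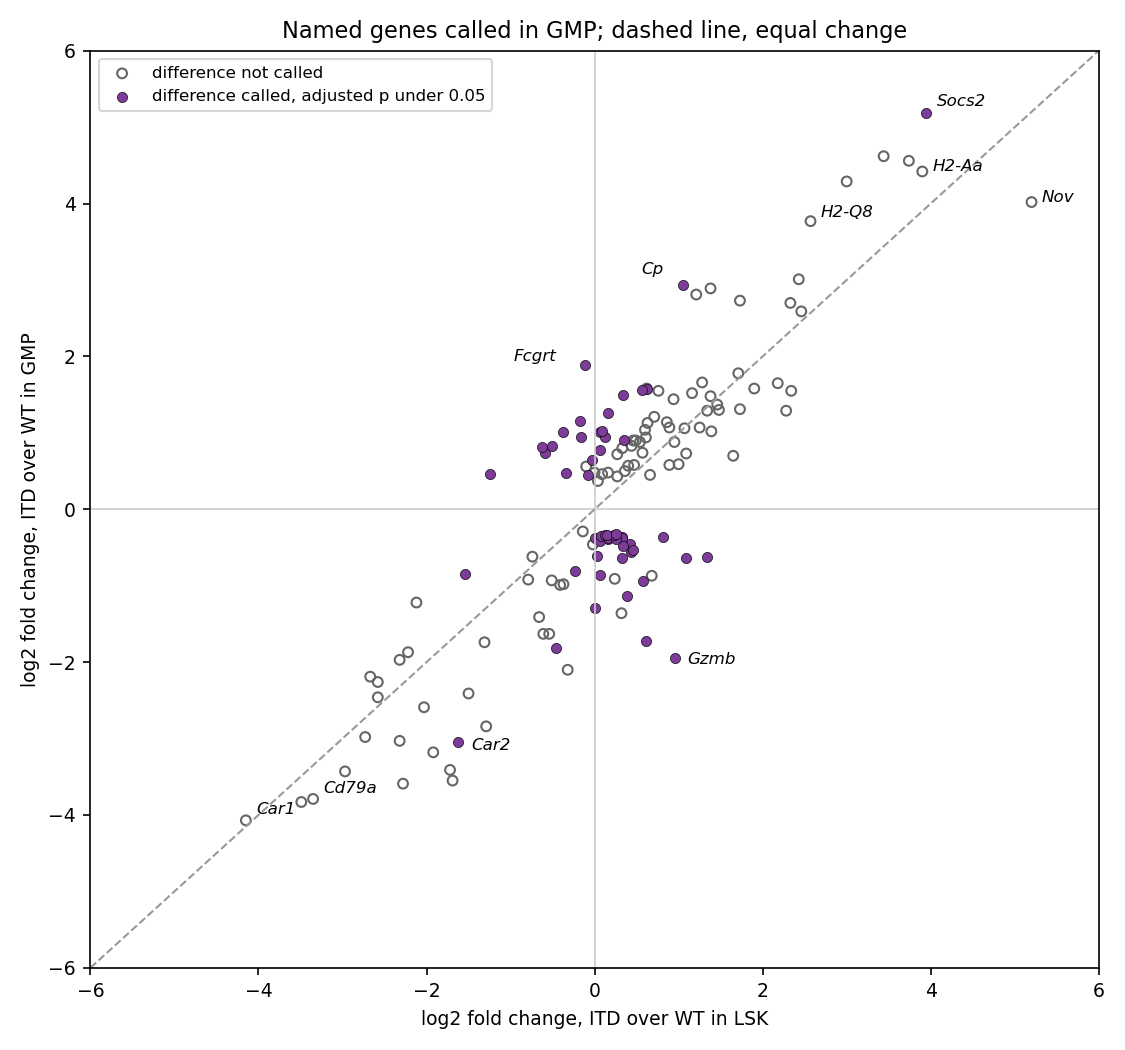
Log2 fold change of ITD over WT in GMP (vertical axis) against LSK (horizontal axis) for the 145 named genes called in GMP, with filled points where the difference was called and a dashed line for equal change. Filled points number 53, Socs2, Cp and Fcgrt above the line and Gzmb and Car2 below it.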

How the data were processed

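RNA was sequenced from sorted progenitors, and the authors deposited 1 table of FPKM per gene for each library. Per the submitters' processing notes, STAR, Cufflinks and the mm10 build were used, with tool versions not given in the sources used here. Different library kits are named in the labels' protocols and in the series text, so strand is unknown, and overlapping or antisense genes cannot be told apart. FPKM keeps no counts, so no counting error can be given.

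Genes that reached 1 FPKM in 3 or more of the 6 ITD and WT libraries were kept. Their log2(FPKM + 1) values were fitted by limma 3.58.1 (R 4.3.3) with a mean-variance trend over all 12 GMP libraries, and over all 24 libraries for LSK and for its difference from GMP, with Benjamini-Hochberg adjustment over all tested genes and a threshold of 0.05. Tables and figures were made with Python 3.11.15. The fits were tested on simulated data. Alternatives were other pseudocounts, filters and scalings, the libraries compared alone, a sex term, a replicate block and leaving out each library.

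The lists and their key genes were chosen with earlier results of these data known. The text names the key genes, the 12 genes with the highest and the 12 with the lowest fold change among those called, not overlapping and at 5 FPKM or more, up to 5 called members of each list by p, and up to 5 genes in each direction from each test of a difference. H2-Oa, H2-Ob, Rfx5, Hbb-b1, Fcgr3 and dendritic and B cell markers were named besides these after their values were seen. Some members of the lists are not reported here.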

Additional observations from a re-analysis of the deposited data

Results flagged for a closer look

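Of the genes whose effect of the Flt3 allele differed between GMP and LSK by limma, 13 are given here. The values are the log2 fold change in GMP minus that in LSK, with the standard error, from 1 fit of all 24 libraries. Socs2 had 1.24 ± 0.39 (limma adjusted p = 0.0402) and Cp had 1.89 ± 0.38 (limma adjusted p = 0.00537); both were tested only because of their level in ITD GMP, which favours a large effect there. Car2 fell further in GMP, with -1.42 ± 0.38 (limma adjusted p = 0.0220).

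Gzmb fell in GMP and was higher in ITD LSK, with -2.90 ± 0.40 (limma adjusted p = 0.000606). The same signs were found for Cst7, with -1.73 ± 0.25 (limma adjusted p = 0.000966), for the fatty acid elongase gene Elovl5, with -0.87 ± 0.12 (limma adjusted p = 0.000966), and for the tubulin gene Tuba4a, with -0.99 ± 0.12 (limma adjusted p = 0.000337).

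Fcgrt had 2.01 ± 0.17 (limma adjusted p = 5.42e-06), with a log2 fold change of 1.89 in GMP and -0.12 in LSK. Ypel3 had 1.70 ± 0.16 (limma adjusted p = 1.23e-05), Eva1b had 1.44 ± 0.17 (limma adjusted p = 0.000183) and Samsn1 had 1.41 ± 0.18 (limma adjusted p = 0.000519). Sdc1, which encodes the cell surface proteoglycan syndecan 1, had 2.52 ± 0.28 (limma adjusted p = 7.72e-05), with 0.32 in GMP and -2.20 in LSK. Sema4a, a semaphorin gene, had -2.08 ± 0.28 (limma adjusted p = 0.000606), with 0.36 in GMP and 2.44 in LSK.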

How the results depend on the processing

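The count of genes that differed between ITD and WT GMP, 1222, was 509 when the 6 libraries were fitted alone, 277 with sex as a covariate and 37 in female libraries only, the last chosen after seeing the data, and 393 to 1637 with 1 library left out. It stayed within 1.5 times of 1222 under the other pseudocount, filter, scaling and trend settings. Without IRE1 the count of 1352 was 670 to 1096 with 1 library left out. The count of differences between GMP and LSK, 1481, was 776 when the libraries were fitted alone and 644 to 1685 with 1 library left out, and that for the IRE1 genotype, 0, was 0 to 97. The causes were not tested. Of 145 named genes called, 61 kept their call under all 15 alternative settings other than the female libraries, 84 lost it under at least 1, and none changed sign.

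Between ITD and WT GMP the replicate numbers showed no pairing: deviations of same-numbered libraries correlated at 0.0775, 0.0201 and -0.0416. Same-numbered GMP and LSK libraries matched in sex in ITD, WT and IRE1_KO but not in IRE1_KO_ITD. Whether they shared animals was not tested, and the fit of all 24 libraries treats them as separate. With the replicate block 810 genes were called. FPKM alone leaves counting error unknown, most of all for genes under 1 FPKM.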
